A study of Mus musculus with 24 samples.

Results

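Heart muscle genes were measured in whole left lung lobes of newborn mice. The group holds 10 genes of 23420 in each table, all 10 found by their symbols: *Mb*, *Myl7*, *Myl4*, *Myh6*, *Tnnt2*, *Tnni3*, *Actc1*, *Nppa*, *Sln* and *Actn2*. They were chosen by earlier results of the same comparisons, so their levels and fold changes are given as a description. Where the fit over all genes puts a member past its threshold, that is stated only as a count beside the share of all genes, and it is no independent evidence. RNA-seq was done on 24 lungs in 8 groups of 3, at postnatal day 2 (P2) and day 5 (P5). Mutants were Sox9Cre/+; Vangl2f/f or Sox9Cre/+; Ror2f/f, and each mutant at each age had its own 3 control lungs, whose genotype entry is WT. *Vangl2* encodes a core protein of planar cell polarity and *Ror2* a receptor for Wnt ligands. In these mutants Cre is made from the *Sox9* locus and acts in the distal lung epithelium, though Sox9-Cre is also expressed elsewhere in the animal. Titles and genotype entries disagree on the floxed gene for 2 of the mutant groups, *Vangl2* at P5 and *Ror2* at P2, and groups follow the titles. Beyond WT, the Cre and floxed alleles of the controls are not given in the sources used here. The *Vangl2* controls are titled Control(Vangl1/2) at both ages, and whether they carry a *Vangl1* allele is not given either.

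In mice, heart muscle does not stop at the heart. A sleeve of cardiomyocytes, atrial in kind, follows the pulmonary veins into the lung, so a lung lobe carries heart muscle RNA of its own, and a cut close to the hilum can add more. Cardiomyocytes contract through sarcomeres, in which myosin (heavy chain *Myh6*, light chains *Myl7* and *Myl4*) pulls on actin (*Actc1*) anchored at the Z disc by alpha-actinin (*Actn2*), under the control of troponin (*Tnnt2*, *Tnni3*). *Sln* encodes sarcolipin, an inhibitor of the calcium pump, *Mb* the oxygen carrier myoglobin and *Nppa* the hormone precursor of atrial natriuretic peptide.

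*Myl7* and *Tnnt2* moved together across the lungs, *Mb* followed them less closely and *Nppa* did not follow. Picked after this was seen, the upstream sequences of these 4 of the 10 genes are shown. They are the 250 bases before a RefSeq start site (GRCm38.p6), on the strand of the gene and read 5′ to 3′, from windows that hold no GENCODE exon. Capitals mark a CArG box, the serum response factor motif, or GATAA, the core of a GATA factor motif, which reads TTATC where it lies on the other strand.
*Myl7* (chr11:5898783-5899032, minus strand): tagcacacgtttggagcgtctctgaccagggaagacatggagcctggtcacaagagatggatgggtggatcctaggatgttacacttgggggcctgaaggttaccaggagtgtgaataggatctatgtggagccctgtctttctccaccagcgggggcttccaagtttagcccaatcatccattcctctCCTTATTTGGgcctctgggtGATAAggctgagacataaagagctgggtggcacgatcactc
*Tnnt2* (chr1:135836084-135836333, plus strand): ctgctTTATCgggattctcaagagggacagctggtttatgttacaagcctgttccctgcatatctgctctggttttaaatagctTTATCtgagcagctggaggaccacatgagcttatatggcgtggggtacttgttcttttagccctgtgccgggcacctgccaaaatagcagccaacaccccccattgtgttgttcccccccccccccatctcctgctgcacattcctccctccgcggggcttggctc
*Mb* (chr15:77022788-77023037, minus strand): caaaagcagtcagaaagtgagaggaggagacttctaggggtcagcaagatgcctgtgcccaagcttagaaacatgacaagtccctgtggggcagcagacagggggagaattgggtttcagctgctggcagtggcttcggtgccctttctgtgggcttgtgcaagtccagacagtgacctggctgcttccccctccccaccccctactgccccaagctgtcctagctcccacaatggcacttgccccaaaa
*Nppa* (chr4:148000472-148000721, plus strand): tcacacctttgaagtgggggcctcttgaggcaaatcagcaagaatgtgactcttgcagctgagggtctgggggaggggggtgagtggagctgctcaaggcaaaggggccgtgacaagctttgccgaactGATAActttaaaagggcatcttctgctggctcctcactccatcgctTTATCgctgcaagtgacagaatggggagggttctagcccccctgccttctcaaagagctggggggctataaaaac

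Both strands were searched in the 12 annotated upstream windows of 9 members, and *Sln* had none in the table. A CArG box stood in 2 of the 12 windows, 61 bases before the start of *Myl7* and 47 bases before that of *Actc1*, and in 1.47% of the 32851 windows of all genes. GATAA stood in 3 of the 12, those of *Myl7*, *Nppa* and 1 of *Tnnt2*, and in 22.6% of all windows. The MEF2 site was in none of the 12 member windows and in 2.92% of all, while the E-box CANNTG was in 10 of the 12 and in 66.2% of all. TATAAA stood in 1 of the 12, that of *Nppa*, and in 12.4% of all. The motifs do not overlap each other in the sequences shown. A match of letters is not a binding site, and these data hold no binding measurement.

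Levels are normalized counts, the reads on a gene divided by a size factor of the lung, and each of the 4 tables was scaled on its own 6 lungs. The reads on genes numbered 16178031 to 21546673 in 20 of the lungs, and could not be recovered from the values in 3. Control replicate 1 of *Ror2* at P5 had 13823693 reads and none on expressed genes of chromosomes 6 to 9 and X, so *Tnni3* (chromosome 7) and *Sln* (chromosome 9) have 2 control lungs there. The targeted gene had a lower mean in the mutants of each comparison, without passing the threshold. At P2 the normalized count of *Vangl2* was 277 ± 26.7 in control and 213 ± 35.3 in mutant lungs, and at P5 325 ± 39.3 and 161 ± 11.7 (SD, n = 3). *Ror2* had 517 ± 65.1 and 398 ± 70.8 at P2, and 497 ± 118 and 441 ± 79.7 at P5 (adjusted p = 0.241, 0.0604, 0.250 and 0.691 in this order, limma). *Vangl2* lungs did not overlap at either age, and *Ror2* lungs overlapped at both. *Sftpc*, the surfactant gene that marks lung epithelium, lay between 91779 and 311500 normalized counts in all 24 lobes.

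Lobes of one group differed in their heart muscle RNA, by more than 3-fold from lowest to highest in all 4 control groups and in the *Ror2* mutants at P5, and by less than 3-fold in the other mutant groups. The 10 genes together took between 0.0101% and 0.128% of a lung's normalized counts where all 10 were measured. Their sum was 14064, 5705 and 4018 in *Vangl2* control replicates 1 to 3 at P2 and 7708, 6068 and 3382 in the mutants, with control replicate 1 the high lung. At P5 it was 2484, 1953 and 6747 in *Vangl2* controls and 4748, 2767 and 4346 in mutants, where control replicate 3 stood apart. In the *Ror2* comparison at P2 the sum was 5396, 23389 and 19772 in controls and 11781, 11845 and 5730 in mutants, and here control replicate 1 was the low control. Over the 8 genes measured in every *Ror2* lung at P5 the sum was 5517, 1119 and 5339 in controls and 15669, 6355 and 2011 in mutants. Control and mutant sums overlapped in all 4 comparisons. In bulk RNA, fewer cardiomyocytes and less RNA per cardiomyocyte cannot be told apart, and how closely each lobe was trimmed is not given in the sources used here.

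**Figure D1:**
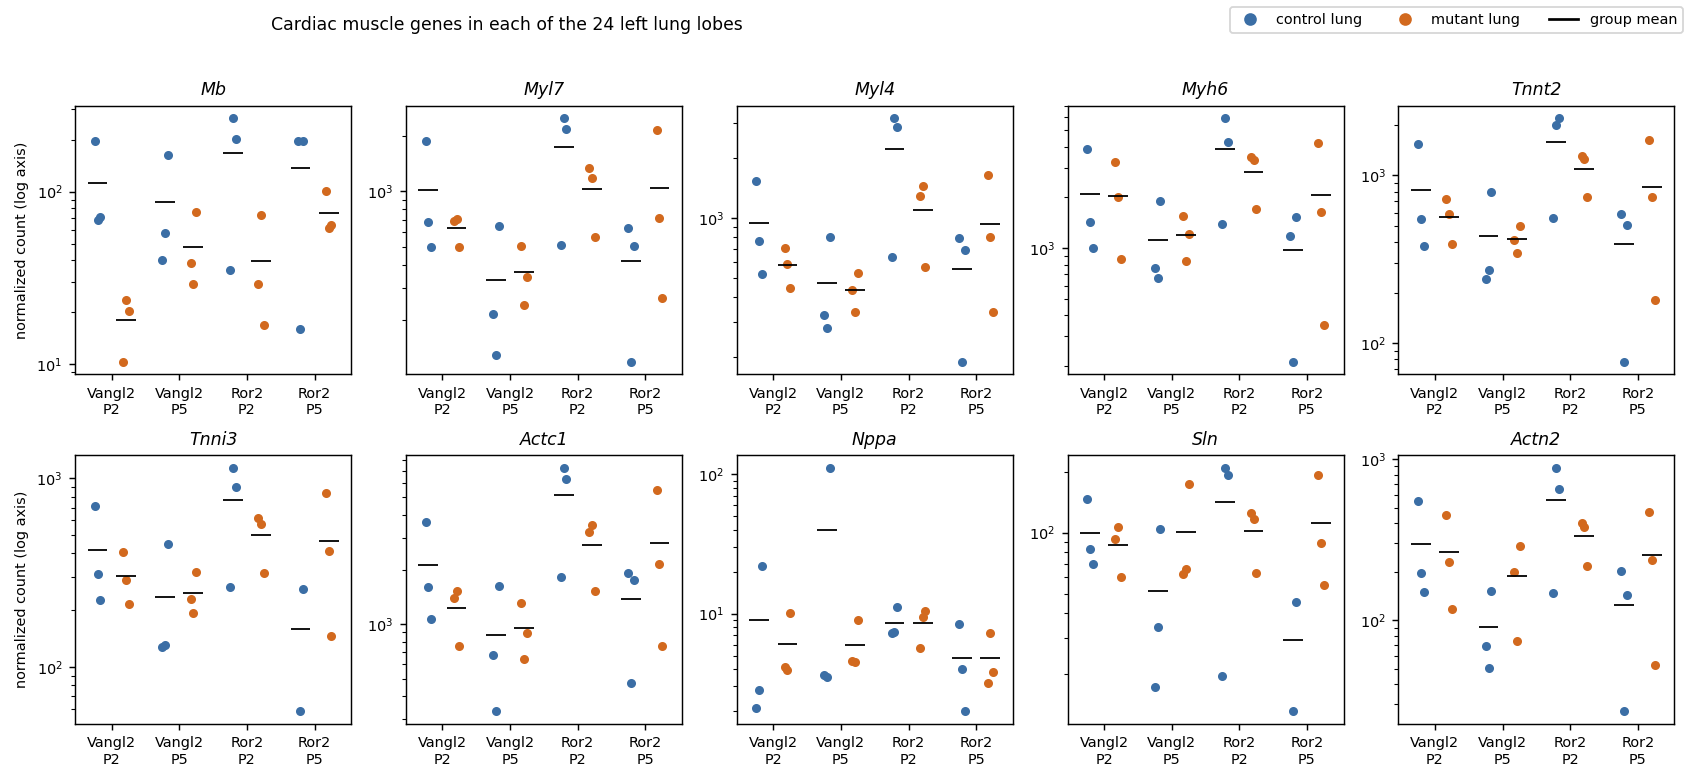
Normalized count of each of the 10 genes (y, log axis) in the 3 control and 3 mutant lungs of each comparison (x), with the mean of each group as a bar. *Mb* of *Vangl2* at P2 is the place where the mutant lungs all sit below the controls, and *Nppa* of *Vangl2* at P5 has 1 control lung at 112.

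Among the members that encode myosin chains, *Myh6* (chr14:54941921-54966927) had the highest counts, not corrected for gene length. Its normalized counts at P2 were 3875, 1433 and 1004 in the *Vangl2* controls and 3234, 2003 and 859 in the mutants. The groups overlapped throughout, with a log2 fold change of -0.00 (SE 0.58, n = 3 and 3). In the *Ror2* comparison at P2 it was 1398, 5927 and 4252 in controls and 3461, 3314 and 1708 in mutants. At P5 *Myh6* reached from 662 to 1911 in the *Vangl2* controls and from 834 to 1554 in the mutants, and from 212 to 1541 and from 351 to 4203 in the *Ror2* comparison. Control replicate 2 and mutant replicate 3 were the low lungs of *Ror2* at P5, and mutant replicate 1 the high one. Reads that match both *Myh6* and its neighbour *Myh7* could have been split between them in the counting.

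*Myl7* (chr11:5896637-5898782), the atrial regulatory light chain, followed the same lungs. It was 1873, 683 and 503 in *Vangl2* controls at P2 against 693, 711 and 499 in mutants, and 217, 130 and 648 against 505, 242 and 345 at P5. Control replicate 1 was the only *Vangl2* lung above 1000 at P2, and control replicate 3 the highest at P5. In the *Ror2* comparison *Myl7* was 514, 2501 and 2185 in controls against 1342, 1183 and 568 in mutants at P2. At P5 it was 632, 119 and 509 against 2157, 716 and 263. The mutant range lay within the control range at P2 and reached both above it and into it at P5. *Myl4* (chr11:104550663-104595753), the atrial essential light chain, had fitted log2 fold changes of -0.57, 0.02, -0.82 and 0.70 in *Vangl2* at P2, *Vangl2* at P5, *Ror2* at P2 and *Ror2* at P5 (SE 0.37, 0.38, 0.64 and 0.67). Its control and mutant lungs overlapped in all 4.

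The actin and Z disc genes gave the same picture. *Actc1* (chr2:114047282-114053548) was 3638, 1612 and 1071 in *Vangl2* controls at P2 against 1393, 1523 and 763 in mutants, and 1820, 7289 and 6313 against 3207, 3508 and 1519 in the *Ror2* comparison. At P5 it was 681, 330 and 1613 against 1311, 642 and 893 for *Vangl2*, and 1921, 473 and 1750 against 5466, 2139 and 759 for *Ror2*. No comparison separated mutant from control lungs. *Actc1* is nearly identical to *Acta1* and *Acta2* in its coding part, and the smooth muscle actin *Acta2* was present at 5330 to 19014 normalized counts, so reads that match more than 1 of these genes make its level uncertain. *Actn2* (chr13:12269426-12340760) had log2 fold changes of -0.14 and 0.99 for *Vangl2* at P2 and P5, and of -0.45 and 0.95 for *Ror2* (SE 0.58, 0.56, 0.64 and 0.92).

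The highest *Actn2* value of the *Vangl2* lungs at P5, 290, came from mutant replicate 3, with 174 for *Sln* in the same lung. That lung also had 1531 normalized counts of the skeletal muscle actin *Acta1*, against 2.24 to 9.07 in the other 5, and a skeletal muscle sum of 5727 over 19 genes against 205 to 365. *Sln* and *Actn2* are also genes of skeletal muscle. Without mutant replicate 3 the log2 fold change of *Actn2* was 0.58 in place of 0.99, and that of *Sln* 0.68 in place of 1.15. The thymus markers summed to 20521 in that lung against 50.4 to 160 in the others, and the part of these tissues in *Sln* and *Actn2* was not tested.

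Troponin genes moved with the myosins. *Tnnt2* (chr1:135836354-135852260), the tropomyosin-binding subunit, was 1534, 550 and 379 in *Vangl2* controls at P2 and 718, 589 and 391 in mutants. It was 584, 77.3 and 506 in *Ror2* controls at P5 and 1626, 738 and 181 in mutants, and again control replicate 2 and mutant replicate 3 were lowest. *Tnni3* (chr7:4518305-4524229), the inhibitory subunit, was 58.2 and 260 in the 2 *Ror2* controls at P5 that could be used and 834, 410 and 147 in mutants, with a log2 fold change of 1.58 (SE 0.82, n = 2 and 3). With control replicate 1 taken as it stands that value would be 3.89. In the other 3 comparisons the log2 fold changes of the 2 troponins lay between -0.42 and 0.30.

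*Sln* (chr9:53850164-53854560) was the member of *Ror2* at P5 whose mutant lungs did not overlap the controls. It was 13.1 and 45.6 in the 2 usable controls and 192, 88.8 and 55.3 in the mutants, which gave a log2 fold change of 1.96 (SE 0.65, n = 2 and 3), or 3.51 with control replicate 1 as it stands. Mutant and control lungs did not overlap in 30.0% of the 17177 genes tested there, so 1 of 10 is not above the background. In the other comparisons *Sln* overlapped, for example at 19.6 to 210 in *Ror2* controls and 63.0 to 125 in mutants at P2.

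*Mb* (chr15:77015487-77050670) differed from the others. At P2 it was 196, 68.3 and 70.9 in *Vangl2* controls and 10.3, 23.6 and 20.4 in mutants, with all mutants lower than all controls. The log2 fold change was -2.45 (SE 0.49, n = 3 and 3), from group means of 112 ± 72.9 and 18.1 ± 6.92 (SD). Leaving out 1 lung at a time gave -2.71 to -1.96. For *Ror2* at P2 it was 35.1, 267 and 203 in controls and 29.3, 73.0 and 16.8 in mutants (log2 fold change -1.88, SE 0.83), and control replicate 1, low in every contractile gene, overlapped the mutants. At P5 the values were 40.1, 57.6 and 162 against 38.5, 29.1 and 76.0 for *Vangl2*, and 198, 16.1 and 197 against 101, 61.6 and 63.9 for *Ror2*, and the groups overlapped (log2 fold changes -0.70 and -0.23, SE 0.56 and 0.87). Myoglobin is also made in skeletal muscle. In *Ror2* at P2, *Acta1* was 33.0, 179 and 139 in controls and 12.4, 16.1 and 3.15 in mutants, so it was lower in the same comparison, while in *Vangl2* at P2 it was 30.5, 17.1 and 12.5 in controls and 86.8, 5.90 and 6.11 in mutants. *Acta1* is 1 gene of the skeletal muscle list, and in *Ror2* at P2 it too was lowest among the controls in replicate 1. The sum of the 19 skeletal muscle genes there was 276 to 484 in controls and 248 to 321 in mutants, with overlapping groups. The part of skeletal muscle in the *Mb* values was not tested.

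*Nppa* (chr4:148000722-148002079) was low in the lung. It was 2.11, 2.85 and 22.0 in *Vangl2* controls at P2 and 4.13, 3.93 and 10.2 in mutants. At P5 it was 3.65, 3.53 and 112 in controls and 4.58, 4.48 and 8.94 in mutants, and control replicate 3 alone stood out. The same lung was the highest of its group for all 10 members and had 3943 normalized counts over 7 fat genes, against 44.7 and 49.3 in the other 2 controls. In the mutants this fat sum was 729, 51.5 and 406, beside the *Nppa* values of 4.58, 4.48 and 8.94. In the *Ror2* comparison *Nppa* lay between 1.98 and 11.2 in all 12 lungs, and its log2 fold change was -0.02 at P2 and 0.08 at P5.

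Per kilobase of exon, the 10 genes kept a similar order in the controls of the 4 comparisons. *Actc1* and *Myl7* held the first 2 places in each, with 1430 ± 919 and 1728 ± 1262 normalized counts per kilobase for *Vangl2* at P2 and 3490 ± 1980 and 2938 ± 1810 for *Ror2* at P2 (SD, n = 3). *Myl4*, *Tnnt2*, *Tnni3* and *Myh6* followed in places 3 to 6 in all 4. *Mb*, *Actn2*, *Sln* and *Nppa* took the last 4 places, with *Nppa* at 10.4 ± 13.1 for *Vangl2* at P2 and 5.55 ± 3.79 for *Ror2* at P5. Of the 36 pairs of neighbours in these orders, 34 overlapped within their SD, *Actc1* and *Myl7* included, and the other 2 were *Sln* above *Nppa* for *Vangl2* at P2 (75.8 ± 31.0 and 10.4 ± 13.1) and for *Ror2* at P2 (107 ± 80.0 and 9.92 ± 2.60). Much of this SD is variation between lobes that the genes share, and within single control lungs the first gene of a pair was the higher one in every lung for 26 of the 36.

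Taking mutant against control as a whole, the median log2 fold change of the 10 genes was -0.32 for *Vangl2* at P2, 0.27 for *Vangl2* at P5, -0.43 for *Ror2* at P2 and 0.92 for *Ror2* at P5. The median of all genes tested was within 0.01 of 0 in each. The number with a positive fold change was 1, 8, 1 and 9 of 10. All 10 passed the filter on low values in every table. In the fit over all genes (limma, Benjamini-Hochberg), 1 of 10, *Mb*, passed the threshold for *Vangl2* at P2, where 3.59% of genes did. With 1 lung left out it passed without mutant replicate 3 and not without any of the other 5. For *Vangl2* at P5, *Ror2* at P2 and *Ror2* at P5, 0 of 10 did, against 0.563%, 0.00% and 0.180% of genes. Mutant and control lungs did not overlap for 1 of 10 (*Mb*) for *Vangl2* at P2, where 29.6% of genes did not, for 0 of 10 for *Vangl2* at P5 and *Ror2* at P2, where 25.7% and 25.7% did not, and for 1 of 10 (*Sln*) for *Ror2* at P5. These members were chosen by these contrasts, and nothing is read from the counts.

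The direction of the median hung on single lungs in the *Vangl2* comparisons. Without control replicate 1 the P2 median was 0.12, and with other lungs left out it went down to -0.71. At P5 it was -0.10 without control replicate 2 and 0.80 without control replicate 3, and other lungs left out gave values between these. For *Ror2* it stayed on its side of 0, from -1.15 to -0.08 at P2 and from 0.11 to 1.84 at P5.

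**Figure D2:**
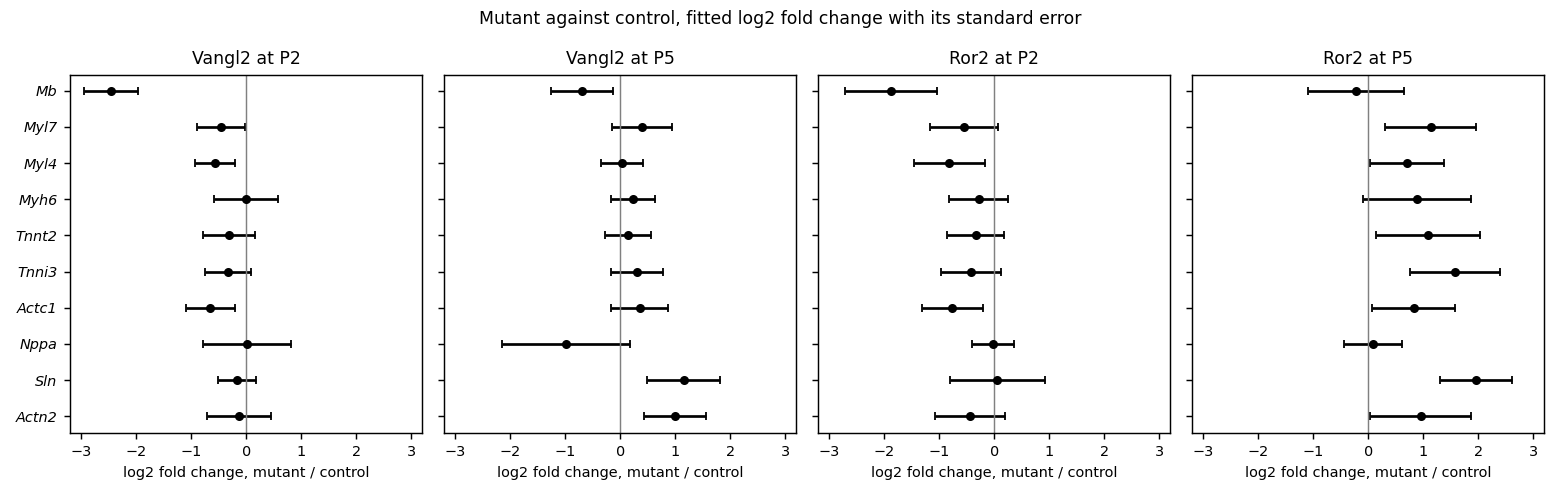
Fitted log2 fold change of mutant over control (x) for each of the 10 genes (y) in the 4 comparisons, with its standard error as a bar. The *Mb* point at P2 lies at -2.45 for *Vangl2* and -1.88 for *Ror2*, and most other points lie within 1 of 0 at P2 and above 0 for *Ror2* at P5.

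The variation between lobes was shared. For each lung the log2 deviation of a gene from the mean of its own group was taken, which removes the difference between mutant and control. Among *Myl7*, *Myl4*, *Myh6*, *Tnnt2*, *Tnni3*, *Actc1* and *Actn2*, the 7 sarcomere genes, Pearson's r of the deviations over 23 or 24 lungs was 0.93 to 0.99 in the 21 pairs (Spearman's rho 0.91 to 0.99), and 0.90 to 0.99 without the 2 lungs farthest out. The highest was *Myl7* with *Actc1* (0.99). *Sln* followed them with r of 0.78 to 0.90 and *Mb* with 0.70 to 0.84, or 0.57 to 0.75 for *Mb* without 2 lungs. *Nppa* did not follow, with r of 0.02 to 0.24 in its 9 pairs. The points of 1 group sum to 0 and each lung enters all genes through the same library, so these correlations are a description.

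**Figure D3:**
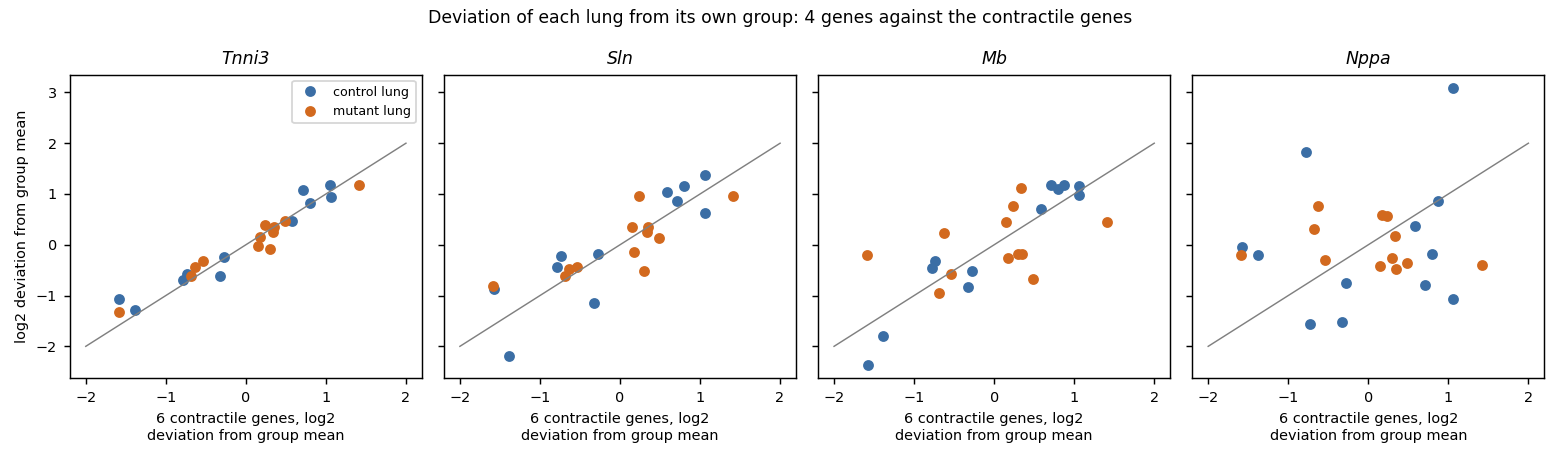
Log2 deviation of *Tnni3*, *Sln*, *Mb* and *Nppa* from the group mean (y) against the mean deviation of 6 contractile genes (x), 1 point per lung, with the line of equal deviation. *Tnni3* lies along the line, *Sln* and *Mb* spread around it and *Nppa* does not follow it.

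Dividing by the other muscle genes of the same lobe therefore removed most of the spread. Against the mean log2 level of the contractile genes measured in all lungs (*Myl7*, *Myl4*, *Myh6*, *Tnnt2*, *Actc1* and *Actn2*, each gene left out of its own reference), the SD within groups fell from 1.05 to 0.23 for *Myl7*, from 0.92 to 0.20 for *Tnni3* and from 1.12 to 0.28 for *Myh6* (log2, pooled over the 8 groups). For 7 of the 10 genes the variance was 90.7% to 95.3% smaller, and for *Sln* and *Mb* it was 70.9% and 59.6% smaller. For *Nppa* it was larger, with an SD of 1.49 in place of 1.20. This reference was chosen after the values were seen.

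On that scale *Mb* was lower in the mutants of all 4 comparisons. Its mean log2 level relative to the contractile genes was -3.12 ± 0.29 in *Vangl2* controls and -5.22 ± 1.05 in mutants at P2, and -2.32 ± 0.47 and -3.38 ± 0.51 at P5 (SD, n = 3). For *Ror2* it was -3.73 ± 0.37 and -5.08 ± 0.69 at P2, and -2.16 ± 0.68 and -3.32 ± 1.23 at P5. The mutant minus control difference was -2.10, -1.06, -1.34 and -1.16, and stayed between -2.53 and -0.68 when any 1 lung was left out. Mutant lungs lay below all control lungs in 3 of the 4, though at *Vangl2* P5 only by the gap between -2.83 and -2.85. In *Ror2* at P5 mutant replicate 3, at -1.93, lay among the controls. *Mb* was not alone in this: in *Ror2* at P2 *Myl4* and *Actc1* were also lower in all mutants than in all controls and *Myh6* and *Sln* higher, and in *Vangl2* at P5 *Myl4* was lower. On this scale lungs did not overlap for 6.20%, 3.66% and 1.53% of all genes in *Vangl2* at P2, *Vangl2* at P5 and *Ror2* at P2, and for 0.885% in *Ror2* at P5. Without the reference the shares were 29.6%, 25.7%, 25.7% and 30.0% in this order. The reference adds the lobe to lobe variation of the contractile genes to every gene that does not share it. The shares on this scale are therefore no background for genes that follow the contractile genes. The scale and the gene were both picked from these lungs, so no test is given.

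**Figure D4:**
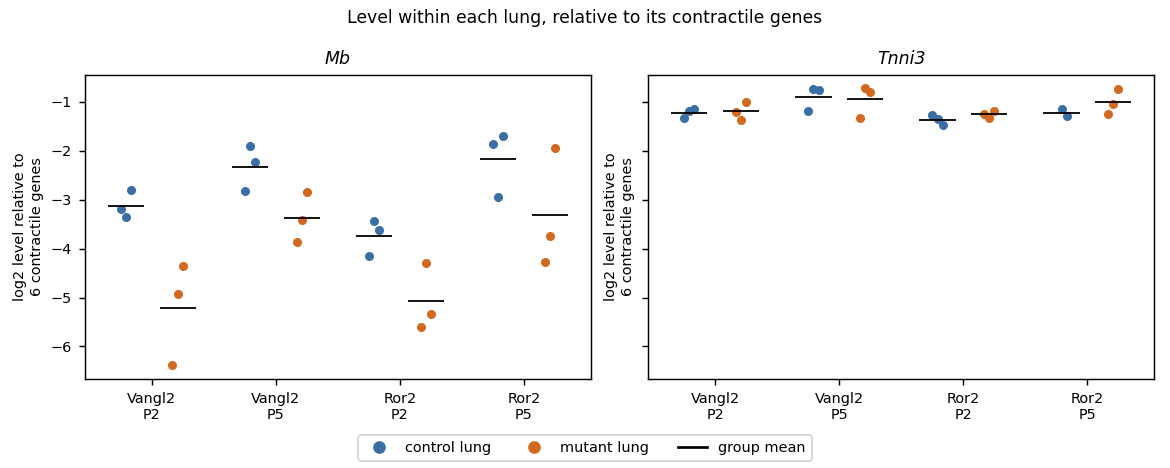
Log2 level of *Mb* and *Tnni3* relative to 6 contractile genes of the same lung (y), by comparison and genotype (x), with group means as bars. The *Mb* means are -3.12 and -5.22 in *Vangl2* control and mutant lungs at P2, while those of *Tnni3* are -1.22 and -1.19.

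Of the other 9 genes, 8 had differences between -0.40 and 0.80 on the relative scale. *Tnni3* differed by 0.02, -0.05, 0.11 and 0.21 between mutants and controls, *Myl7* by -0.13 to 0.24 and *Tnnt2* by -0.26 to 0.23. *Myl4* was lower in mutants in all 4, by -0.40 to -0.26, and *Sln* higher in all 4, by 0.19 to 0.80. *Nppa*, which did not follow the other genes, varied from -1.35 to 0.51. *Myl3*, the light chain of ventricular and slow muscle, and *Ckmt2*, the mitochondrial creatine kinase of striated muscle, are not among the 10. Named after their values were seen, they were also below 0 on this scale in all 4, at -1.42, -0.70, -0.61 and -0.60 for *Myl3* and -1.57, -0.60, -0.97 and -0.22 for *Ckmt2*. Other genes looked at in the same way were less even. *Cox7a1* was below 0 in all 4, by -0.32 to -0.10. *Fabp3*, *Cox8b*, *Ckm*, *Pgam2* and *Myl2* were above 0 in some comparisons, at up to 0.33, 0.66, 0.77, 0.12 and 0.26. At the level itself *Myl3* was 265, 110 and 55.6 in *Vangl2* controls at P2 against 42.4, 35.4 and 25.5 in mutants (log2 fold change -1.77, SE 0.53, adjusted p = 0.107, limma).

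Other genes of heart muscle were taken from a wider list of 69 genes, sorted by role, which was drawn up with earlier results of these data known. Of its genes 67, 66, 67 and 67 passed the filter in *Vangl2* at P2, *Vangl2* at P5, *Ror2* at P2 and *Ror2* at P5, and 0 passed the limma threshold in each. At an unadjusted p under 0.05 there were 7, 10, 6 and 9, where 22.5%, 18.8%, 19.3% and 18.5% of all genes were, so the list was not above the background. At P2, edgeR on recovered reads called 0 for both mutants, where it called 3.37% of all genes for *Vangl2* and 0.00% for *Ror2*. DESeq2 called 2 of 63 for *Vangl2* (*Myocd*, log2 fold change -0.57, and *Alpk3*, 0.61) and 0 of 50 for *Ror2*, where it called 12.6% and 6.15% of all genes. The median log2 fold change of the list was -0.23, 0.24, -0.27 and 0.66, beside medians within 0.01 of 0 over all genes.

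In *Vangl2* at P5 the deviations of same-numbered control and mutant lungs correlated (r of 0.38, 0.34 and 0.24), though no sample label names pairs. With the replicate number as a block, 5 of 66 genes of the wider list passed there, against 8.95% of all genes, with adjusted p from 0.0184 to 0.0359 (limma). Among them, *Ttn* (0.92), the giant spring protein of the sarcomere, and *Isl1* (2.08), a regulator of heart progenitors, were higher in mutants on the log2 scale, and *Mef2c* (-0.74) and *Myocd* (-1.05), regulators of muscle genes, lower. *Ttn* was 265.8, 112 and 585 in the mutants and 131, 64.7 and 300.3 in the controls, and the 585 was again mutant replicate 3 with its skeletal muscle markers. None of the 10 members passed with the block, and the largest positive values were those of *Actn2* (log2 fold change 0.99, SE 0.25) and *Sln* (1.15, SE 0.30).

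By role, the sarcomere genes of the wider list had median log2 fold changes of -0.19, 0.49, -0.21 and 0.86 in *Vangl2* at P2, *Vangl2* at P5, *Ror2* at P2 and *Ror2* at P5. Those of calcium handling had -0.31, -0.14, -0.37 and 0.46, and those of energy supply -0.32, 0.25, -0.60 and 0.71. Channels and junctions had -0.26, -0.12, -0.15 and 0.36, and regulators and hormones -0.23, 0.22, -0.36 and 0.62. Among genes with a mean of at least 10, large differences were those of *Ckmt2* (-1.92, SE 1.02) for *Vangl2* at P2 and *Isl1* (2.08, SE 0.65) for *Vangl2* at P5. For *Ror2* they were those of *Ckmt2* (-1.51, SE 0.92) at P2 and of *Csrp3* (1.85, SE 0.78), a Z disc protein, and *Tnni1* (1.77, SE 0.69), the slow skeletal troponin I, at P5. *Smpx* (-0.84) and *Myoz2* (0.85) at P2, *Ckm* (1.12) at P5 for *Vangl2*, and *Tnnc1* (-0.98) at P2 and *Xirp1* (1.42) at P5 for *Ror2* were further examples that did not pass (adjusted p from 0.190 to 0.541, limma).

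Whether a change differed between ages or between mutants was tested over 2 tables at a time, each lung against its own controls. Of the wider list, 0 genes differed between P5 and P2 for *Vangl2* and 0 for *Ror2*, where 0.00% and 0.00% of all genes did. Between *Ror2* and *Vangl2* the count was 0 at P2 and 0 at P5, where 0.00% and 0.0118% of all genes differed (limma). At an unadjusted p under 0.05 there were 3, 3, 0 and 1, where 8.45%, 9.49%, 4.60% and 4.73% of all genes were. The lowest adjusted p of any gene of the list was 0.452.

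The wider list showed which genes shared the lobe to lobe variation. Over the 66 list genes tested in all tables, the median r with the mean deviation of the 6 contractile genes was 0.84, and 43 of the 66 had r over 0.7, while 0.921% of all 16723 genes did. The sarcomere genes had a median of 0.91, calcium handling 0.87, energy supply 0.81, regulators and hormones 0.64 and channels and junctions 0.56. Among the regulators, *Tbx20* followed closely (r = 0.95), while *Tbx5*, which lung mesenchyme also expresses, did not (r = -0.18) and lay between 1345 and 4104 normalized counts in the 23 lungs where it was measured. *Gja5*, a connexin of atria and arteries, had r of 0.22 at 1447 to 3336 normalized counts.

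**Figure D5:**
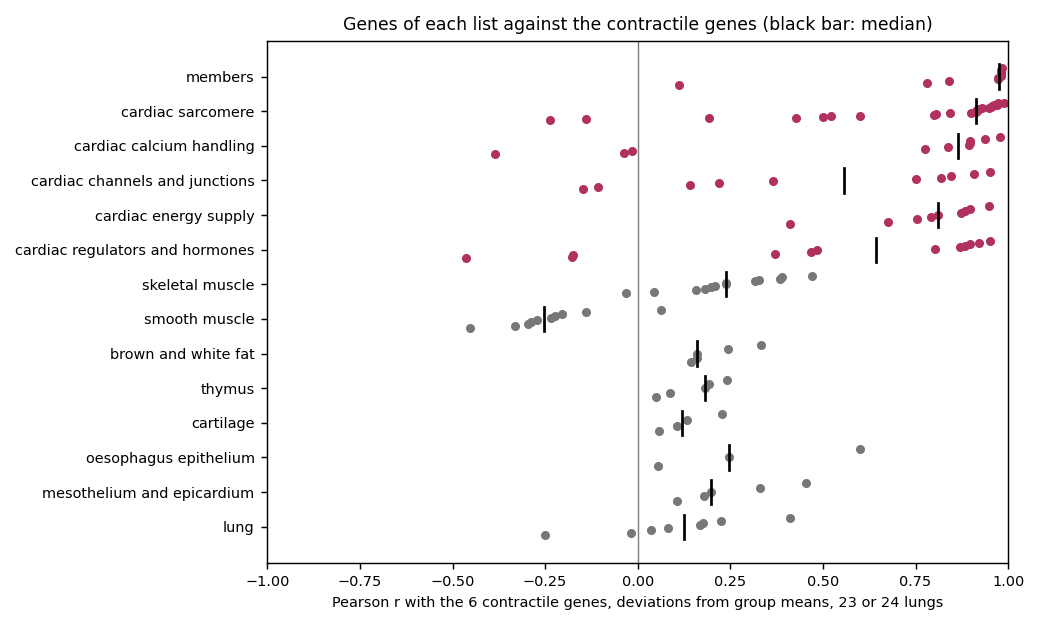
Pearson's r of each gene with the 6 contractile genes (x), computed on log2 deviations from group means over 23 or 24 lungs, for each list (y), with the median as a black bar. The 5 cardiac lists have medians of 0.56 to 0.91 and the lists of other tissues medians of -0.25 to 0.25.

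The 20 genes nearest to the mean deviation of the 10 members, by Pearson's r over 23 or 24 lungs, had r of 0.92 to 0.98. *Synpo2l*, *Mybphl*, *Mybpc3*, *Casq2*, *Tnnc1* and *Csrp3* led, at 0.98, 0.97, 0.97, 0.96, 0.96 and 0.95. Of the 20, 14 were in the wider list, among them the heart regulators *Nkx2-5* (0.94) and *Tbx20* (0.93). The 6 in no list were *Mybphl*, *Hfe2*, *Eef1a2*, *Rnf207*, *Myo18b* and *Mapk10*. *Mybphl*, a myosin binding protein, was 195, 68.3 and 46.9 in *Vangl2* controls and 86.8, 63.9 and 31.6 in mutants at P2. None of the 20 was in the skeletal or smooth muscle lists.

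Markers of the heart chambers were uneven. The ventricular genes *Irx4* and *Nppb* were listed at 0 in all 6 lungs of *Vangl2* at P2, *Irx4* did not exceed 0.89 anywhere, and *Nppb* did not exceed 3.15. *Myl2*, the ventricular regulatory light chain, lay between 1.03 and 25.8 over the lungs where it was measured, against 119 to 2501 for its atrial counterpart *Myl7*. *Myh7* was at 154 to 1434. *Bmp10*, an atrial factor of the trabeculated heart, was listed at 0 in all 6 lungs of *Vangl2* at P2 and of *Ror2* at P2. The ventricular gene *Myl3* followed the contractile genes (r = 0.84), and *Myh7* and *Myl2* did so less (0.43 and 0.22). Of the atrial genes, *Sln* and *Kcnj3* had r of 0.84 and 0.82, and *Myl7* and *Myl4* are part of that reference. *Sbk2*, *Kcna5*, *Gja5* and *Nppa*, also atrial, had 0.47, 0.37, 0.22 and 0.11.

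Markers of other tissues that lie near the lung had lower correlations with the contractile genes, though some were not low by rank. Their lists had median r of 0.24 (skeletal muscle, 13 genes), -0.25 (smooth muscle, 10), 0.16 (fat, 5), 0.18 (thymus, 5), 0.12 (cartilage, 4), 0.25 (oesophagus epithelium, 3), 0.20 (mesothelium and epicardium, 5) and 0.13 (lung, 8), and 0 genes of these lists had r over 0.7. By rank the median rho of skeletal muscle genes was 0.31, with 0.63 for *Acta1* and 0.62 for *Tnnt3*, and *Trp63* of the oesophagus list had 0.68. For the summed lists Pearson's r was 0.27 and Spearman's rho 0.56 for skeletal muscle, and 0.42 and 0.53 for oesophagus epithelium. The sum of the skeletal muscle list thus partly rose and fell, by rank, with the contractile genes from lobe to lobe. Which cells its transcripts came from was not measured, and the part of skeletal muscle in the members' variation was not tested. Ranked over all 24 lungs, the most abundant genes of the lists were *Acta1*, *Acta2*, *Ucp1*, *Rag1*, *Col2a1*, *Krt5*, *Msln* and *Sftpc*, in the order above. For *Acta1*, *Ucp1*, *Rag1* and *Krt5* a few lungs with high values can set this rank. Other genes of their lists can be higher in most lungs. *Krt5* lay between 0 and 667, with a median of 1.09. *Acta1* lay between 0.95 and 1531, *Ucp1* between 0 and 2637 and *Rag1* between 0.92 and 8683, with medians of 6.11, 1.04 and 6.06 over the lungs, far below the highest values. Whether the lobes with high values held pieces of these tissues was not tested. *Msln* was at 1181 to 7024. The skeletal muscle sum over 19 genes lay between 205 and 633 in 17 of the 18 lungs outside *Ror2* at P5, and over 12 genes between 138 and 164 in those of *Ror2* at P5, and *Myod1* and *Pvalb* were listed at 0 in all 6 lungs of both P2 comparisons.

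For *Vangl2* at P2, where *Mb* was low, the smooth muscle genes *Myh11* (log2 fold change -0.48, adjusted p = 0.0339) and *Smtn* (-0.51, adjusted p = 0.0418) fell and the epithelial genes *Hopx* (0.75, adjusted p = 0.0436) and *Epcam* (0.51, adjusted p = 0.0494) rose (limma). Smooth muscle sums over 10 genes were 47852 to 55111 in controls and 31633 to 45255 in mutants. Their part in the *Mb* difference was not tested. The skeletal muscle sum there was 234 to 315 in controls and 247 to 633 in mutants, with overlapping groups, and 0 of its 15 tested genes passed the threshold.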

How the data were processed

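Whole left lung lobes were sequenced on Illumina HiSeq instruments, 3 lungs per group in 8 groups. The authors' deposited tables hold a signal per gene and lung, the reads counted on the gene divided by a size factor of the lung, called normalized counts. The submitters' processing notes name mm10 and DESeq2, and the aligner and counter are not given in the sources used here. The tables also hold the authors' own fold changes and p-values, which were not used.

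The 10 members and all gene lists were chosen with earlier results of these data known. Named genes are all members, from the wider list those past the threshold and the largest differences at a mean of at least 10, from other lists the most abundant gene and those past the threshold, and the 20 genes nearest by r. Some genes that this rule takes are not reported here. *Myl3*, *Ckmt2* and the other genes set beside *Mb* on the relative scale, and *Mybphl* values, were picked after seeing them.

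Each table was fitted on its own with limma 3.58.1 in R 4.3.3 (eBayes with an intensity trend), on log2(normalized count + 1), over genes at 1 or more in at least 3 of 6 lungs, so fold changes of low genes are understated. The plan was edgeR for raw counts and limma for normalized values, and the tables hold the latter. P-values were adjusted by Benjamini-Hochberg over all genes, with a threshold of 0.05. Nothing says whether the lungs of a group came from separate litters. The p-values set the difference between groups against the spread between these lungs, taken as independent. Whole reads (within 0.02) were recovered in 21 of 24 lungs, and edgeR 4.0.16 and DESeq2 1.42.0 were run on them at P2. Scripts were tested on simulated data. In *Ror2* at P5, control replicate 1 was set to missing for 8085 genes on chromosomes 5 to 9 and X, and for 200 on Y or unplaced. Deviations of same-numbered control and mutant lungs correlated at 0.38, 0.34 and 0.24 for *Vangl2* at P5, each over 0.1, so the fit with the replicate number as a block is reported there. No sample label names pairs. Exon lengths are unions from GENCODE M21 and upstream sequences are RefSeq (GRCm38.p6), the assembly of mm10.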

Additional observations from a re-analysis of the deposited data

How the results depend on the processing

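The median log2 fold change of the 10 members kept its sign under every alternative that used all lungs, at -0.57 to -0.32 for *Vangl2* at P2, 0.26 to 0.37 for *Vangl2* at P5, -0.68 to -0.43 for *Ror2* at P2 and 0.90 to 0.95 for *Ror2* at P5. Leaving out 1 lung moved it to between -0.71 and 0.12, -0.10 and 0.80, -1.15 and -0.08, and 0.11 and 1.84. *Mb* for *Vangl2* at P2 stayed between -2.71 and -1.96. The numbers of genes called over the whole table were far less stable: leaving out 1 lung gave 1 to 2333 for *Vangl2* at P2 (626 with all lungs), 0 to 54 for *Vangl2* at P5 (98), 0 to 859 for *Ror2* at P2 (0) and 0 to 897 for *Ror2* at P5 (31), the highest without mutant replicates 3, 2, 2 and 3. DESeq2 called 1992 and 804 at P2 for *Vangl2* and *Ror2*. Equal totals per lung gave 193 for *Vangl2* at P5, a mean of at least 10 gave 20 for *Ror2* at P5, and control replicate 1 on all chromosomes gave 1 there. The replicate block gave 795, 1558, 1 and 1 genes, and the call it changed among the 10 members was that of *Mb* for *Vangl2* at P2, which was lost there. Same-numbered lungs hardly correlated in that table (r of -0.01, 0.04 and 0.09). For *Ror2* same-numbered lungs correlated at 0.03, 0.21 and 0.12 at P2 and 0.06, -0.05 and -0.11 at P5.

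The wider list gave 2 genes with DESeq2 for *Vangl2* at P2 and 5 with the replicate block for *Vangl2* at P5. Leaving out 1 lung gave 0 to 3 (*Jph2* and *Mef2c* among them, without mutant replicate 3) for *Vangl2* at P2, 0 to 2 (*Jph2* among them, without mutant replicate 2) for *Ror2* at P2 and 0 to 5 (*Nebl*, *Hspb7*, *Tnni1* and *Fabp3* among them, without mutant replicate 3) for *Ror2* at P5. Differences between ages and mutants stayed at 0 list genes in all alternatives run, which were chosen after seeing the data, as was the masking of Y and unplaced genes (22 genes called without it). The cause of these shifts was not tested. With 3 lungs per group and this spread between lobes, the standard errors of the 10 members, 0.34 to 1.16 on the log2 scale, limit what can be seen.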
